A study of Danio rerio with 3 samples.

Results

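Inhibitory hindbrain neurons were taken as the postmitotic neurons that held RNA of the inhibitory transmitter machinery together with RNA of Pax2 or Lim-class homeodomain factors. Members were chosen by their counts: a cell qualified when it had at least 500 but not 6500 or more genes, under 5% of its UMIs (unique molecular identifiers, the counted RNA molecules) from mitochondrial genes, at least 3 UMIs of the pan-neuronal gene elavl3, at least 1 UMI of any of gad1b, gad2, slc32a1 and slc6a5, at least 1 UMI of any of pax2a, lhx1a and lhx5, and 0 UMIs of eya1, six1b and isl1, which mark placodal, sensory and motor cells. Of 23453 cells within the gene and mitochondrial limits, 153 met the rule, and every value of the rule's own genes below is therefore a description.

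The cells came from 3 zebrafish libraries of the tissue around the otic vesicle, with the labels giving an age of about 22 hours post fertilization (hpf) and the study's methods describing the pooling of embryos of more than 1 stage. Each library held 1 genotype: shox2+/+ (wild-type), shox2Δ/+ (heterozygote) or shox2Δ/Δ (mutant), with many embryos pooled before dissociation. The wild-type embryos carried the neurog1:dsRed and neurod1:EGFP reporters and were chosen for showing both, the mutants were chosen as the GFP-negative offspring of parents carrying a shox2-Gal4 allele and UAS:GFP, and the heterozygote library is not described in the study's methods. Over all filtered cells the EGFP transcript had 44626 wild-type, 41062 heterozygote and 478 mutant UMIs. That of DsRed had 23728, 349 and 72. The heterozygote cells thus held EGFP with little DsRed, and the line that gave it is not stated. Genotype, reporter line and library therefore cannot be told apart, and with 1 library a genotype no difference between genotypes was tested.

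In the vertebrate hindbrain, inhibitory neurons release GABA, glycine or both. GABA is made by glutamate decarboxylases, and both transmitters are loaded into synaptic vesicles by the same carrier, the product of slc32a1, while the plasma membrane transporter encoded by slc6a5 keeps the glycine supply of glycinergic cells. These neurons arise from several progenitor domains along the dorsoventral axis, and each domain is known by its own transcription factors, among them the Pax2 and Lhx1/5 factors that most of the inhibitory classes share.

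Members made up 0.819% of the 8548 wild-type cells (70 cells, exact binomial 95% interval 0.639 to 1.03%), 0.583% of the 8233 heterozygote cells (48 cells, 0.430 to 0.772%) and 0.525% of the 6672 mutant cells (35 cells, 0.366 to 0.729%). The mutant share was 0.641 times the wild-type share (0.414 to 0.974), and the heterozygote share was 0.712 times it (0.483 to 1.04). Among elavl3-positive cells alone the shares lay close together, at 2.93, 3.03 and 2.71% in the wild-type, heterozygote and mutant libraries, which gave a mutant ratio of 0.925 (0.598 to 1.41). The lower share of members in the mutant library therefore went with a lower share of elavl3-positive cells as a whole (2391, 1584 and 1293 cells). All intervals on shares, levels and ratios cover counting error only.

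The filtered libraries held 176280326, 157573577 and 131099920 UMIs in the wild-type, heterozygote and mutant order used throughout, and the median member held 17237.5, 18770.5 and 20893 UMIs. The libraries shared barcodes pairwise (1089 between wild-type and heterozygote, 2083 between wild-type and mutant, 1497 between heterozygote and mutant), and 20 wild-type, 2 heterozygote and 9 mutant members had a barcode that was also present in another library. None of these barcodes was a member in more than 1 library, and in none was the member the copy with 5 times fewer UMIs. Over all filtered cells, 1755 of 8548 wild-type, 577 of 8233 heterozygote and 1490 of 6672 mutant cells had such a shared barcode. Because the shared barcodes were unevenly spread, the main results below are also given without them where they change. This was not done for every named gene. The targeted gene, shox2, had 388, 713 and 131 UMIs in all filtered cells (2.20, 4.52 and 0.999 counts per 1e6 UMIs, CPM) and 1, 4 and 0 UMIs in members. The allele deletes the first exons and the libraries read 3′ ends, so these counts do not check the genotype labels. By RT-qPCR of individual embryos, the paper reports shox2 transcript as nearly absent in mutants. The 131 UMIs of the mutant library differ from that, and the reason was not tested.

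The members were then described by the genes that chose them, which is a description and not a test. The vesicular transporter slc32a1 was the most abundant of the transmitter genes, at 579 CPM (Poisson 95% interval 539 to 621), 396 (359 to 437) and 362 (323 to 405). The glutamate decarboxylase gene gad2 stood at 137, 212 and 131 CPM, and its paralogue gad1b at 125, 68.3 and 29.6 CPM. The glycine transporter gene slc6a5 stood at 148, 95.3 and 52.0 CPM. The wild-type library was the highest and the mutant library the lowest for gad1b, slc32a1 and slc6a5, whereas gad2 was highest in the heterozygote library. The summed level of the transmitter genes was 989, 772 and 575 CPM in all members. It was 833, 787 and 784 CPM in the members whose barcode was found in 1 library. Most of the spread of this sum between libraries therefore rested on the shared barcodes.

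**Figure D1:**
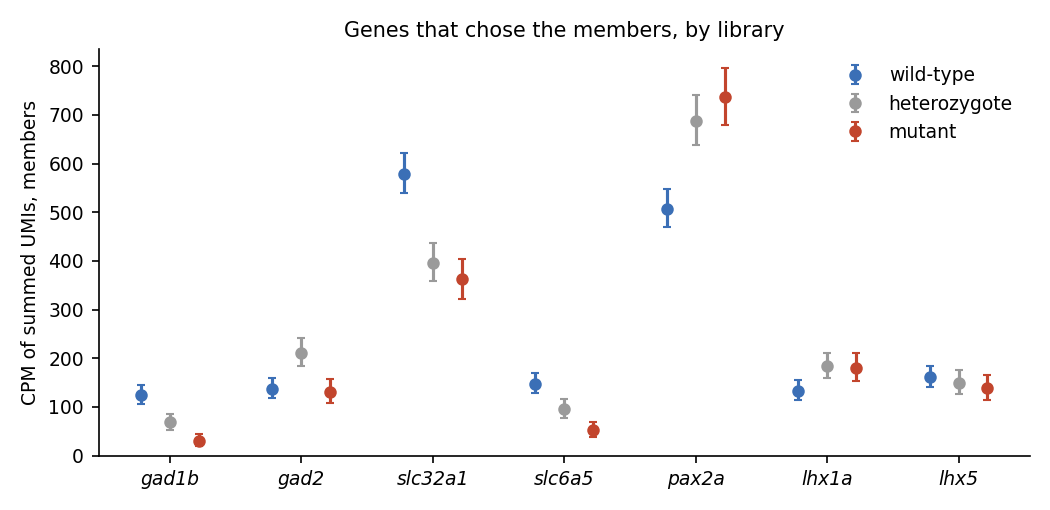
CPM (vertical axis) of the genes that chose the members, gad1b, gad2, slc32a1, slc6a5, pax2a, lhx1a and lhx5, in the summed members of each library, with exact Poisson 95% intervals as bars. The transcript of slc6a5 ran from 148 CPM in the wild-type to 52.0 CPM in the mutant library, while pax2a ran from 507 to 736 CPM. All members are drawn, and without the shared barcodes the summed transmitter genes lay much closer together between libraries.

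The transcription factors of the rule ran the other way or were level. The paired-box gene pax2a stood at 507, 688 and 736 CPM, the LIM-homeobox gene lhx1a at 134, 184 and 180 CPM, and lhx5 at 162, 150 and 138 CPM. Members usually held several of the factors: pax2a, lhx1a and lhx5 were all found in 74 of 153 members (48.4%), pax2a together with an Lhx gene in 105, an Lhx gene without pax2a in 35, and pax2a alone in 13.

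By transmitter genes, most members had the GABA-synthesis genes. A gad1b or gad2 UMI was found in 118 members, 43 of which (28.1% of all members) also had slc6a5 and 75 of which (49.0%) did not. Only 10 members (6.54%) had slc6a5 without a decarboxylase gene, and 25 (16.3%) had slc32a1 alone. In epidermal cells, slc6a5 was found in 0.360, 4.02 and 2.65% of cells and slc32a1 in 3.69, 6.29 and 3.73%. Their median depths were 22666, 21341 and 21294 UMIs, and a single UMI of these transmitter genes in a cell can be background. The factor pax2a was found in 21.0, 14.8 and 14.8% of epidermal cells. These cells also held the placodal genes eya1 (138, 94.1 and 100 CPM) and six1b (203, 108 and 113 CPM). How much of their pax2a was background was not tested. Members rested on a single transmitter UMI in 21 cells, on a single factor UMI in 13 and on a single UMI of each in 5. At the elavl3 limit, no member had exactly 3 UMIs, and 2 cells that met all other conditions had 2 UMIs. A further 72 cells were left out only for a UMI of eya1, six1b or isl1, and 31 of these had just 1 such UMI.

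The position label was checked with genes outside the rule. At least 1 UMI of 15 hindbrain Hox and rhombomere genes was present in 64 of 70, 43 of 48 and 28 of 35 members (91.4, 89.6 and 80.0%), 135 in all. In epidermal cells the share was also high, at 71.5, 73.3 and 76.6%, so a UMI of these genes did not by itself set members apart. At least 10 such UMIs were present in 60.0, 66.7 and 71.4% of members, 54.1, 48.8 and 59.6% of excitatory neurons and 34.4, 35.6 and 39.6% of epidermal cells. The other 18 members had none of these genes, and the name hindbrain was not settled cell by cell. The commonest was hoxb3a, a Hox gene of the caudal hindbrain, in 98 members, at 404, 499 and 407 CPM. The rhombomere segmentation gene egr2b stood at 63.4, 83.7 and 102 CPM, and mafba, a gene of the caudal rhombomeres, at 77.7, 85.6 and 103 CPM.

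A minority of members carried genes of other brain regions. At least 2 UMIs of 19 forebrain or 5 midbrain marker genes were found in 0 wild-type, 4 heterozygote and 9 mutant members. Of these 13 members, 5 had no hindbrain gene. The marker set was narrower than the midbrain and isthmus list, which has 11 genes. It left out gbx2, a gene of the isthmus and anterior hindbrain, which was found in 22, 5 and 5 members. The summed forebrain list was 2.26, 209 and 198 CPM and the midbrain and isthmus list 185, 136 and 462 CPM. Trunk Hox genes, of paralogue groups 5 and above, were summed to 63.4, 34.6 and 451 CPM in members and 145, 26.8 and 133 CPM in excitatory neurons. They were found in 5, 6 and 9 members, and a single cell held 76 of the 84 wild-type and 216 of the 381 mutant UMIs.

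Markers of other tissues varied between lists. The summed otic list was 35.5, 127 and 206 CPM in members against 60.5, 78.2 and 62.4 CPM in excitatory neurons, and its gene oc90, encoding an otoconial protein, was found in 9, 11 and 9 members. The cranial ganglion list was 257, 286 and 360 CPM, against 759, 1163 and 1245 CPM in excitatory neurons. Both lists were lowest in the wild-type and highest in the mutant members, and their part in the ratios between genotypes below was not tested. The summed endothelial list was 5.28, 15.4 and 1.18 CPM, the blood list 7.55, 6.74 and 3.55 CPM, the muscle list 15.8, 6.74 and 10.6 CPM and the motor neuron list 0.755, 0 and 2.37 CPM. The epidermal list was 199, 266 and 251 CPM, and 950, 2664 and 370 CPM in excitatory neurons.

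Members were next compared with excitatory neurons, to ask which genes set the members apart from neurons of the same tissue marked for glutamate release. The excitatory neurons met the same limits on genes, mitochondrial UMIs, elavl3, eya1, six1b and isl1, had a UMI of the vesicular glutamate transporter genes slc17a6a or slc17a6b, and had none of the 4 transmitter genes (122, 84 and 47 cells). Only members had to hold pax2a, lhx1a or lhx5. Differences that go with the transmitter therefore cannot be told apart from differences that go with these factors. UMIs were summed by library and population and tested with edgeR's quasi-likelihood test with the library as a block, so n = 3 libraries of 3 genotypes, and every gene used by either rule was left out. Of 7161 genes tested, 66 were higher (0.922%) and 65 were lower (0.908%) in members at a Benjamini-Hochberg adjusted p below 0.05. At an unadjusted edgeR p below 0.05, 504 of the 7161 were higher and 611 lower. Unadjusted counts by list in this comparison are to be read against these.

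The gene with the largest difference was en1b, encoding an Engrailed homeodomain factor that marks V1 inhibitory interneurons in the vertebrate neural tube. Its level was 367, 574 and 535 CPM in members and 0, 0.571 and 0 CPM in excitatory neurons, 1535 UMIs against 1. The edgeR log2 difference was 10.80 ± 0.32 (SE, adjusted p = 0.00012), and the ratio of the counts had an interval of 444 to 97981. No library overlapped the other population.

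The winged-helix gene foxd3, which V1 neurons also use, stood at 43.8, 109 and 78.1 CPM in members against 0.462, 1.71 and 0 CPM (log2 difference 6.52 ± 0.40, edgeR adjusted p = 0.0020). Of the 5 V1 genes listed, 3 could be tested and 2 rose, the third being prdm12b at 37.7, 48.1 and 145 CPM. Neural crest cells also express foxd3. All 32 members with a foxd3 UMI had en1b as well, and the summed neural crest list, foxd3 included, was 48.3, 251 and 93.4 CPM in members.

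Single genes of other classes were higher with smaller numbers of UMIs. The dI6 gene dmrt3a, a doublesex-related factor known from commissural inhibitory interneurons of the spinal cord, stood at 151, 42.3 and 94.6 CPM against 0, 1.71 and 0 CPM (7.23 ± 0.67, edgeR adjusted p = 0.0056). Of its 80 UMIs in mutant members, 79 lay in 1 cell. Of the 3 tested genes of the dI6 and V0 list, 1 rose and 1 fell in edgeR, and 2 rose and 1 fell in DESeq2. The V2b gene tal1, a basic helix-loop-helix factor, stood at 89.8, 11.5 and 92.3 CPM in members (4.62 ± 0.69, edgeR adjusted p = 0.030), and it lost the call under DESeq2 (adjusted p = 0.069), without the wild-type library and without the library block. It was the only V2b gene of 6 tested to pass in edgeR, and in DESeq2 1 V2b gene other than tal1 was higher. At an unadjusted edgeR p below 0.05, 4 of the 6 were higher and 0 lower. For tal1, 1 cell held 56 of the 119 wild-type, all 12 heterozygote and 61 of the 78 mutant UMIs.

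Of the 10 dorsal inhibitory factors that could be tested, 5 rose and none fell in edgeR or in DESeq2, with a median log2 difference of 0.85 against -0.02 over all genes tested. At an unadjusted edgeR p below 0.05, 7 were higher and 1 lower. The helix-loop-helix gene bhlhe22 stood at 226, 317 and 332 CPM against 14.8, 11.4 and 4.74 CPM (4.79 ± 0.34, edgeR adjusted p = 0.0023), and gbx1, a gastrulation brain homeobox gene, at 94.3, 121 and 129 CPM against 15.7, 17.7 and 11.1 CPM (2.98 ± 0.22, edgeR adjusted p = 0.0027). Of the 82 members with bhlhe22, 39 had en1b and 23 had tfap2a or tfap2b. Of the 58 with gbx1, 31 had en1b and 15 had tfap2a or tfap2b. The rise of bhlhe22 and gbx1 is therefore not a result about dorsal cells alone. The AP-2 gene tfap2b was 303, 264 and 227 CPM against 59.6, 115 and 103 CPM (1.64 ± 0.25, edgeR adjusted p = 0.030). Its relative tfap2a was also higher (0.93 ± 0.15, edgeR adjusted p = 0.043), as was prdm13, whose product holds dorsal cells in the inhibitory fate in mice, at 27.9, 21.2 and 40.2 CPM in members (4.05 ± 0.35, edgeR adjusted p = 0.0048). The gene ptf1a, whose product specifies dorsal inhibitory neurons from their progenitors, had 0 UMIs in the members of every library.

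Paralogues of the rule's own factors followed them. The Lhx1 paralogue lhx1b stood at 52.1, 52.0 and 62.7 CPM against 6.0, 6.28 and 7.90 CPM (3.11 ± 0.22, edgeR adjusted p = 0.0023), with tight values in both populations. The Pax2 paralogue pax2b stood at 97.4, 31.8 and 37.8 CPM against 8.31, 1.14 and 3.16 CPM (3.82 ± 0.29, edgeR adjusted p = 0.0030), and was highest in the wild-type members. Near-identical copies could share reads in these paralogue pairs, which the counts do not show. The orthopedia homeobox gene otpb was also higher (2.72, edgeR adjusted p = 0.013).

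On the transmitter side, the GABA reuptake transporter gene slc6a1b was the only one of 5 tested genes of the inhibitory handling list to pass. Its level was 261, 302 and 136 CPM in members against 20.8, 5.14 and 20.5 CPM (4.00 ± 0.48, edgeR adjusted p = 0.013), and the lowest member library was still several times above the highest excitatory library. The scaffold gene gphnb, encoding gephyrin, stood at 37.7, 54.8 and 42.6 CPM, and the glycine reuptake gene slc6a9 at 10.6, 6.74 and 8.28 CPM. Over the 5 tested genes of this list the median log2 difference was -0.14. At an unadjusted edgeR p below 0.05, 1 of the 5 was higher and 2 were lower. None of 7 tested genes for GABA and glycine receptors or chloride transporters passed in edgeR or in DESeq2 (median log2 difference -0.43), 1 being higher and 1 lower at an unadjusted edgeR p below 0.05. On this list the glycine receptor genes glra3 and glra4a reached 50.6, 35.6 and 43.8 CPM and 57.4, 67.4 and 7.10 CPM.

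Many factors of excitatory classes were lower in members. Of 16 tested excitatory factors, 10 fell, 1 rose and the median log2 difference was -3.89. The list holds genes of several excitatory domains, so a fall in it counts genes of unlike cells. The exception that rose was uncx4.1, a paired-type homeobox gene (1.36, edgeR adjusted p = 0.0080).

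The Lmx1 gene lmx1bb, a factor of dorsal excitatory neurons, stood at 12.8, 11.5 and 5.91 CPM in members against 193, 247 and 273 CPM (-4.39 ± 0.26, edgeR adjusted p = 0.0018). The dorsal root ganglia homeobox gene drgx was 6.04, 3.85 and 1.18 CPM against 132, 247 and 251 CPM (-5.52 ± 0.38, edgeR adjusted p = 0.0023), and lhx2b, a factor of dorsal commissural neurons, was 0.755, 0.962 and 5.91 CPM against 205, 276 and 166 CPM (-6.47 ± 0.46, edgeR adjusted p = 0.0023). The groups did not overlap for any of these.

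Its relative lhx9 had 1 UMI in the members against 169, 129 and 44.2 CPM in excitatory neurons (-8.18 ± 0.56, edgeR adjusted p = 0.0023, counting interval of the ratio 71.8 to 15872). Members were thus nearly empty of this factor in all 3 libraries.

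The short-stature homeobox genes belonged to this set. The gene shox had 0 UMIs in members against 50.3, 50.8 and 58.4 CPM in excitatory neurons, at least 56.1-fold lower (edgeR adjusted p = 0.0094, taking 3 UMIs over the libraries as the floor for a count of 0). Its paralogue shox2, the gene deleted in the mutants, had 5 UMIs in members against 244 in excitatory neurons (51.7, 59.4 and 22.1 CPM in the latter, log2 difference -4.78 ± 0.48, edgeR adjusted p = 0.0069).

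**Figure D2:**
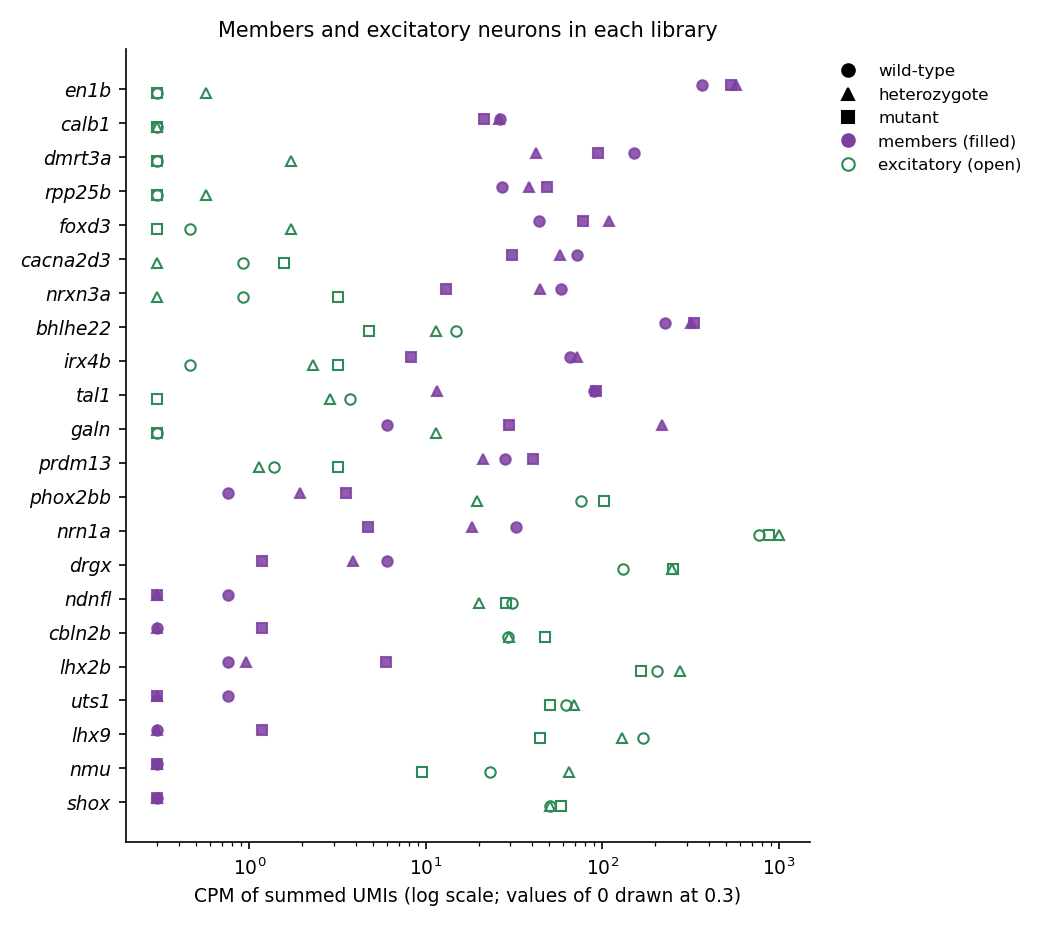
CPM (horizontal log axis) of the named genes with the largest called differences between inhibitory members (filled) and excitatory neurons (open), 1 point for each library, with 0 drawn at 0.3 CPM. The points of en1b lie between 367 and 574 CPM in members and at or below 0.571 CPM in excitatory neurons, and those of shox show the reverse, at 0 in members.

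Among genes of secreted and synaptic proteins, the neuropeptide gene nmu (neuromedin U) had 0 UMIs in members and was at least 36.3-fold lower, and nrn1a, encoding a neuritin, stood at 32.5, 18.3 and 4.73 CPM against 775, 996 and 882 CPM (-5.47 ± 0.41, edgeR adjusted p = 0.0027). The calcium-binding protein gene calb1 had 80 UMIs in members and none in excitatory neurons, at least 43.1-fold higher (edgeR adjusted p = 0.020). A single cell held 25 of its 35 wild-type, 22 of its 27 heterozygote and all 18 of its mutant UMIs. The calcium channel subunit gene cacna2d3 stood at 71.7, 57.7 and 30.8 CPM in members (6.08 ± 0.53, edgeR adjusted p = 0.0048), and nrxn3a, a neurexin gene, at 58.1, 44.3 and 13 CPM (5.03 ± 0.77, edgeR adjusted p = 0.031). The peptide gene galn also passed (4.60, edgeR adjusted p = 0.0060), but its UMIs came from 1 cell in each library.

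Genes of young neurons differed in part. Of 27 tested neuroblast genes 7 rose and 1 fell, among them the Delta ligand gene dlb at 1015, 1488 and 1439 CPM against 400, 476 and 256 CPM (1.89 ± 0.22, edgeR adjusted p = 0.013) and the zinc finger gene insm1b (2.08 ± 0.14, edgeR adjusted p = 0.0023). Of 17 progenitor genes 3 rose, namely her15.1, sox3 and notch1a. Of 42 pan-neuronal genes 2 fell in edgeR and 5 in DESeq2, none rose in either, and the median was -0.41. At an unadjusted edgeR p below 0.05, 16 were lower and 2 higher. The growth cone gene gap43 was 575, 1040 and 524 CPM in members against 1149, 2024 and 2053 CPM (-1.23 ± 0.20, edgeR adjusted p = 0.037). None of 8 hindbrain Hox genes or 16 cell cycle genes passed in edgeR or DESeq2. At an unadjusted edgeR p below 0.05, 2 Hox genes were higher and 2 cell cycle genes lower, against 504 higher and 611 lower of all 7161 genes.

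The number of genes called depended on the libraries and cells used, while most named genes held. Without the wild-type library 73 genes were called and without the mutant library 238. Without the cells whose barcode was in another library 342 were called, of which 114 were among the 131 first called, and the pan-neuronal list then had 16 of 41 genes lower and none higher. The genes nrxn3a, irx4b and nmu lost the call without the heterozygote library (adjusted p = 0.068, 0.12 and 0.052 in edgeR).

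The members were also compared with the cells that met the elavl3 and transmitter limits but lacked pax2a, lhx1a and lhx5 (26, 25 and 39 cells), with the same test. Of these other cells 20, 18 and 30 had a single transmitter UMI, which can be background, and they are not called inhibitory neurons here. They held less elavl3, at a median of 5.5, 5 and 12 elavl3 UMIs against 65.5, 86 and 95 in members, and this gap moves with every difference here. Of 6636 genes, 1135 were higher (17.1%) and 1242 lower (18.7%) in members, 38 of 41 pan-neuronal genes being higher and 16 of 17 cell cycle genes and 13 of 19 progenitor genes lower. Without the wild-type library 3 genes were called.

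Among class factors the orthopedia gene otpa stood at 986, 809 and 467 CPM in members against 0, 9.91 and 3.85 CPM (7.29 ± 0.54, edgeR adjusted p = 0.0067), and otpb at 700, 1094 and 859 CPM against 1.54, 6.60 and 20.2 CPM (6.48 ± 0.49, edgeR adjusted p = 0.0067). The gene en1b was again far higher (6.91 ± 0.61, edgeR adjusted p = 0.0067), as were 3 of 3 tested V1 genes. In the other direction, phox2bb, a factor of visceral motor and related neurons, was 0.755, 1.92 and 3.55 CPM in members against 156, 182 and 138 CPM, and the floor plate ligand gene shha 1.51, 1.92 and 3.55 CPM against 97.3, 421 and 24.0 CPM. Between these groups, both genes were thus carried mainly by the cells without the factors of the rule. In excitatory neurons, which were not sorted by these factors, phox2bb stood at 75.3, 19.4 and 103 CPM.

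Within the members, class factors were found in groups of cells that overlapped to different degrees. These groups are descriptions, since they were formed from the same counts. The en1b gene was found in 45 members (29.4%, interval 22.3 to 37.3%), 15 wild-type, 16 heterozygote and 14 mutant, with medians of 32, 37.5 and 33.5 UMIs in the positive cells. In epidermal cells 1.80, 1.74 and 1.77% had an en1b UMI, and in excitatory neurons 0, 1.19 and 0%. Of the 45 cells, 43 also had otpa or otpb, out of 61 members with these genes, and 39 had bhlhe22. After thinning each cell to 3000 UMIs, which left out 1 heterozygote member, en1b was found in 21.4, 34.0 and 28.6% of members against 0.291, 0.593 and 0.692% of epidermal cells. A decarboxylase gene was present in 40 and slc6a5 in 23.

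The AP-2 genes tfap2a or tfap2b were found in 62 members (40.5%; 32, 18 and 12 by library), of which 14 had slc6a5 and 37 a decarboxylase gene. Only 2 of these 62 cells, and so 2 of the 45 en1b cells, held both. Nested in this group were the 25 members with dmbx1a or with olig3, a gene of dorsal progenitors and their early progeny, of which 23 had an AP-2 gene and 3 had slc6a5.

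Smaller groups held genes of other classes. Of the 153 members, 30 (19.6%) had no UMI of en1b, dmrt3a, gata2a, gata3, tal1, tfap2a or tfap2b. The dI6 gene dmrt3a was found in 11 members (6, 3 and 2), none of which had en1b, otpa or otpb, and 9 of which had lbx1a, a ladybird homeobox gene of dorsal and dI6 neurons. The V2b genes tal1 or gata3 were found in 12 members (5, 3 and 4), 1 of them with en1b and 3 with an AP-2 gene. Of the 44 members with lbx1a, 30 had tfap2b. The peptide-related genes crhbp, encoding the binding protein of corticotropin-releasing hormone, or npb, encoding neuropeptide B, were found in 24 members (9, 12 and 3), of which 17 had slc6a1b. Of these 24 cells 10 had an AP-2 gene, 5 had olig3 or dmbx1a, 3 had tal1 or gata3 and 1 had dmrt3a. Only 2 had en1b and 2 had otpa or otpb, which were found in 45 and 61 of the 153 members. The 24 cells thus overlapped several groups, but few of them held en1b or the orthopedia genes. These 24 cells had a median of 28343 UMIs, above that of the members as a whole in each library, and 7 of them had a barcode that was present in another library.

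Members with an slc6a5 UMI were set against those without, to ask how cells marked for glycine differed from the other members, of which 75 held a decarboxylase gene and 25 held slc32a1 alone, the carrier of both transmitters. There were 23, 17 and 13 members with slc6a5 and 47, 31 and 22 without, at median depths of 18702, 21442 and 26808 UMIs against 16656, 18212 and 19288, so the glycine-marked cells were deeper in each library. Of 4448 genes tested with edgeR in the same way, 62 were higher (1.39%) and 75 were lower (1.69%). At an unadjusted edgeR p below 0.05, 388 of the 4448 were higher and 350 lower, against which unadjusted counts by list are to be read. A cell can hold slc6a5 RNA below 1 captured molecule, and the cells without a UMI were not shown to lack it.

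The gene crhbp, with the highest difference in the cells with slc6a5, stood at 1238, 2376 and 471 CPM against 34.9, 3.20 and 39.0 CPM (5.6 ± 0.57, edgeR adjusted p = 0.0015), and npb at 1568, 1642 and 107 CPM against 25.3, 92.8 and 0 CPM (4.93 ± 0.33, edgeR adjusted p = 0.00077). Both calls were lost without the cells whose barcode was in another library (adjusted p = 0.18 and 0.059 in edgeR). Of the 796 UMIs of npb in wild-type members 788 came from such cells, and of the 641 of crhbp 611 did. Of the 6 tested genes of the list of peptides and calcium-binding proteins 1 rose and none fell, with the same counts in DESeq2, and of 4 tested genes for GABA and glycine receptors or chloride transporters none passed in edgeR and 1 rose in DESeq2. Without the shared barcodes 1 of 4 tested genes of the first list fell, the calretinin gene calb2b (-2.41, edgeR adjusted p = 0.013), and none rose.

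Genes that kept the call without the shared barcodes included gbx2, a homeobox gene of the isthmus and anterior hindbrain, at 200, 145 and 88.4 CPM against 25.3, 1.60 and 4.34 CPM (3.73 ± 0.43, edgeR adjusted p = 0.0029) and lmo4b, a LIM-only factor gene, at 111, 353 and 205 CPM against 33.7, 60.8 and 28.2 CPM (2.34 ± 0.24, edgeR adjusted p = 0.0015). The NMDA receptor subunit gene grin1a stood at 154, 244 and 133 CPM against 28.9, 28.8 and 10.8 CPM (2.87 ± 0.26, edgeR adjusted p = 0.0011), and was under the filter on low counts without the shared barcodes. The GABA reuptake gene slc6a1b was higher as well (364, 524 and 239 against 200, 155 and 49.9 CPM, 1.48 ± 0.24, edgeR adjusted p = 0.012), so the glycine-marked cells held more RNA for GABA uptake. The V1 gene en1b was also higher, at 656, 814 and 692 CPM against 195, 416 and 403 CPM (1.15 ± 0.17, edgeR adjusted p = 0.0081), and lost the call without the shared barcodes (1.1, edgeR adjusted p = 0.099).

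Lower in the cells with slc6a5 were class factors of more than 1 kind. The gene olig3, a helix-loop-helix gene, stood at 8.09, 0 and 0 CPM against 106, 123 and 174 CPM (-5.32 ± 0.56, edgeR adjusted p = 0.0017), and prdm12b, a gene that in the mouse neural tube marks V1 progenitors, at 2.02, 7.24 and 5.20 CPM against 59.0, 75.2 and 262 CPM (-4.63 ± 0.41, edgeR adjusted p = 0.00096). The homeobox gene uncx was 70.8, 45.9 and 31.2 CPM against 299, 390 and 256 CPM (-2.66 ± 0.21, edgeR adjusted p = 0.00077). The POU factor gene pou4f2 had 0 UMIs in the slc6a5 cells and was at least 15-fold lower (edgeR adjusted p = 0.012). All 4 tested factors of the excitatory list, which were uncx, uncx4.1, pou4f1 and pou4f2, fell in edgeR and in DESeq2 (median log2 difference -3.56). Of 5 tested genes of the cranial ganglion list 3 fell, namely prdm12b, pou4f1 and pou4f2 (median -4.46), and each of these is also on a class factor list. Of the 10 dorsal inhibitory factors tested, 6 fell and none rose in edgeR (median log2 difference -1.45), with 7 lower and 0 higher at an unadjusted p below 0.05 and 4 lower in DESeq2, including tfap2a (-1.71 ± 0.17, edgeR adjusted p = 0.0013) and bhlhe22 (-1.29, edgeR adjusted p = 0.0064). Without the shared barcodes 1 of 9 fell (median -1.14), bhlhe22 having an edgeR adjusted p of 0.13 and tfap2a, olig3, prdm12b and uncx keeping the call, while pou4f1 and pou4f2 were under the filter and uncx4.1 had an edgeR adjusted p of 0.060. The gene bhlhe22, counted here as dorsal, was also found in 39 of the 45 en1b members.

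**Figure D3:**
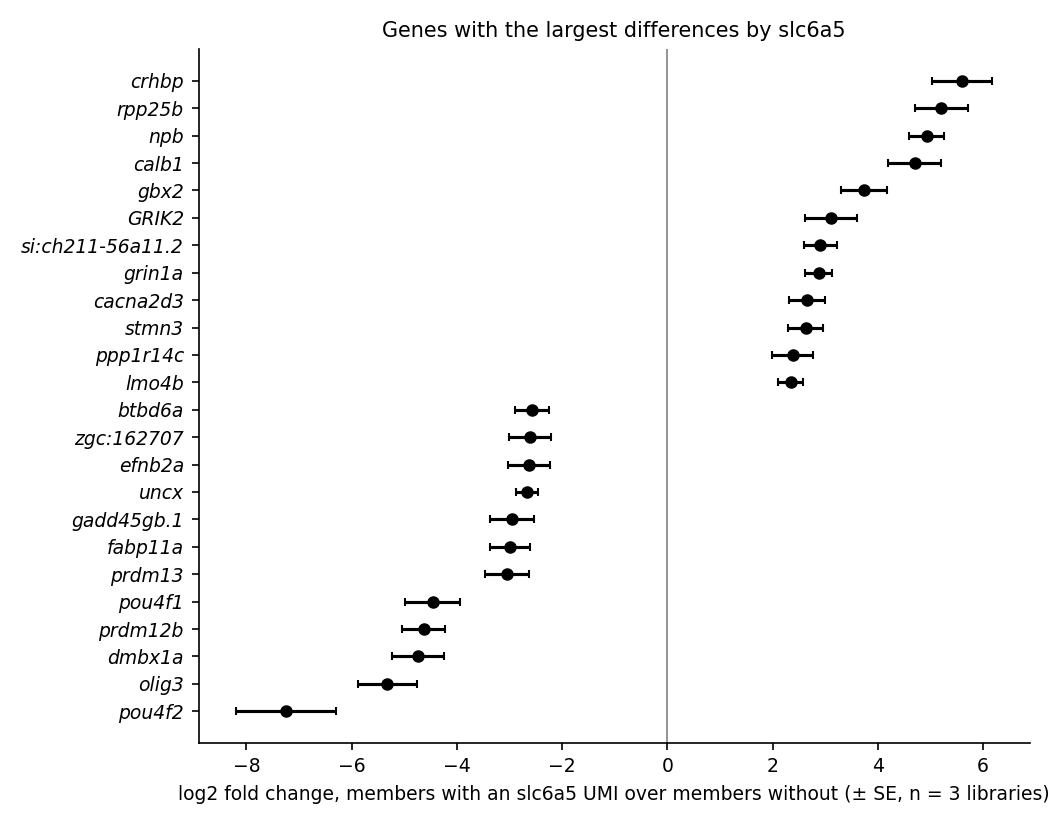
Log2 difference (horizontal axis) between members with and without an slc6a5 UMI for the 24 genes with the largest called differences, as edgeR estimates with the standard error as bars. Estimates run from 5.6 for crhbp down to -7.24 for pou4f2, whose cells with slc6a5 had 0 UMIs. Some of these genes lost the call without the shared barcodes, among them dmbx1a, cacna2d3, stmn3 and fabp11a (edgeR adjusted p = 0.061, 0.075, 0.24 and 0.25).

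Genes of young and of older neurons also differed. Of 24 neuroblast genes tested, 12 fell and none rose in edgeR, 11 fell in DESeq2, and 18 were lower and 1 higher at an unadjusted edgeR p below 0.05 (median -1.02, against 0.01 over all genes), with the Delta gene dlb at -1.67 (edgeR adjusted p = 0.0087) and sox11b at -1.63 (edgeR adjusted p = 0.00077). Of 16 progenitor genes 4 fell, among them the Notch target her4.2 (-1.19, edgeR adjusted p = 0.00077), and of 40 pan-neuronal genes 5 rose and none fell in edgeR (4 in DESeq2, and 14 higher and 1 lower at an unadjusted edgeR p below 0.05), among them snap25a, a gene of the vesicle fusion machinery (1.23 ± 0.19, edgeR adjusted p = 0.010). The median elavl3 count went the other way and was lower in the slc6a5 cells, at 61, 80 and 81 UMIs against 71, 89 and 119. Without the wild-type library 76 genes were called and without the mutant library 332. Without the cells sharing a barcode 49 were called, of which 41 were among the 137 first called. In that choice of cells 9 of 23 neuroblast genes fell and none rose (median -0.98), 1 of 13 progenitor genes fell and 2 of 39 pan-neuronal genes rose, and dlb, her4.2 and snap25a lost the call (edgeR adjusted p = 0.051, 0.064 and 0.084).

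Ratios between genotypes within members were then formed for the genes that reached 50 CPM in either library, and a gene was counted when its ratio passed 2-fold. Between the mutant and wild-type libraries 226 of 2753 genes were higher (8.21%) and 109 lower (3.96%), 12.2% together, and 288 higher and 87 lower without the members sharing a barcode. Of the 335 genes past 2-fold with the totals as scaling, 67.5% were higher. Median-of-ratios scaling in place of the totals shifted the log2 ratios by 0.125, so which genes pass 2-fold, and their split, depend on the scaling. A ratio of sums does not by itself separate fewer positive cells from less RNA in each cell. For en1b, 21.4, 33.3 and 40.0% of wild-type, heterozygote and mutant members were positive, at medians of 32, 37.5 and 33.5 UMIs. Where no counts by cell are given, the sums alone do not separate them.

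Several of the highest ratios came from few cells. The isthmus genes en2b, at 179 against 1.51 CPM, and cnpy1, at 140 against 0.755 CPM, had 92 of 151 and 109 of 118 UMIs in a single mutant cell, and the forebrain gene rx3 (97.0 CPM against 0, at least 42.8-fold higher) came from 2 mutant cells. The gene kctd4 came from 1 mutant cell. Both en2b and rx3 are on the lists of anterior genes given above. All 3 trunk Hox genes at 50 CPM, hoxb5b, hoxb6b and hoxb8a, were past 2-fold higher in the mutant members (median log2 ratio 2.62, and 2.40 over 4 genes without the shared barcodes). Of the 147, 98 and 50 mutant UMIs of these genes 47, 82 and 49 lay in 1 cell. In excitatory neurons only hoxb5b reached 50 CPM, at a log2 ratio of -0.12.

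Other high genes were spread over cells and were also high in excitatory neurons. The gene mettl16, encoding an RNA methyltransferase, was found in 18 of 35 mutant members and 1 of 70 wild-type members (53.2 against 0.755 CPM, counting interval of the ratio 12 to 2846), and excitatory neurons showed 31.6 against 0.462 CPM. The gene si:ch211-209j10.6 was found in 22 mutant, 28 heterozygote and 4 wild-type members, at 79.2, 101 and 3.02 CPM. The cyclin G gene ccng1 stood at 177, 624 and 860 CPM, a mutant ratio of 4.85 (4.18 to 5.64). In excitatory neurons ccng1 stood at 142, 587 and 666 CPM, so the libraries stood in the same order in both populations.

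Among the lowest ratios were neurofilament and peptide genes. The gene pcp4a, encoding a calmodulin-binding Purkinje cell protein, had 1014 UMIs in 23 wild-type members and none in mutant members, at least 216-fold lower, and the neurofilament gene nefmb had 389 UMIs in 8 wild-type cells and none in the mutant, at least 82.7-fold lower. The peptide gene npb was 12.4-fold lower (interval 9.05 to 17.4). In the wild-type library 997 of the 1014 UMIs of pcp4a and 385 of the 389 of nefmb came from the 20 cells whose barcode was in another library. These 20 cells had a median of 23881 UMIs against 15856 in the other 50, and elavl4 at 3065 against 829 CPM. Without the members sharing a barcode npb was higher in the mutant library (log2 ratio 2.88), and nefmb, with 4 UMIs left in wild-type and none in mutant members, gave no direction.

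The pan-neuronal ratios turned on the same cells. Over all members, 37 of 39 pan-neuronal genes were lower in the mutant library and 2 higher, with a median log2 ratio of -0.61 against 0.04 over all genes, and elavl4 at 1741, 2418 and 946 CPM. Among members whose barcode was in 1 library, 19 of 37 were higher and 18 lower, with a median of 0.01. In excitatory neurons, the median was 0.41.

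Progenitor genes were higher in the mutant members under both choices. Of 14 such genes 13 were higher, 8 of them past 2-fold, with a median log2 ratio of 1.11, and without the shared barcodes 10 of 11 were higher with a median of 0.53. The Hairy-related gene her15.1 stood at 694, 1711 and 2364 CPM (mutant ratio 3.41, 3.15 to 3.69), and sox19a, a neural progenitor factor, at 50.6, 44.3 and 168 CPM (3.32, 2.47 to 4.51). The log2 ratios of her15.1 and sox19a were 1.77 and 1.73 in all members and 1.54 and 0.79 without the shared barcodes. In excitatory neurons they were 0.96 and 0.06, so her15.1 was higher in the mutant library there too. Without the members carrying anterior genes the median of the progenitor genes was 0.68, after thinning each cell to 8000 UMIs it was 0.42, and in excitatory neurons it was 0.06 (7 of 12 higher, 2 past 2-fold higher). Over all filtered cells it was 0.20 (12 of 16 higher, 3 past 2-fold higher). Cell cycle genes had a median of 1.03 in all members (11 of 12 higher), 1.70 without the shared barcodes (8 of 9 higher), -0.06 without the members carrying anterior genes (2 of 7 higher) and 0.32 in excitatory neurons.

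**Figure D4:**
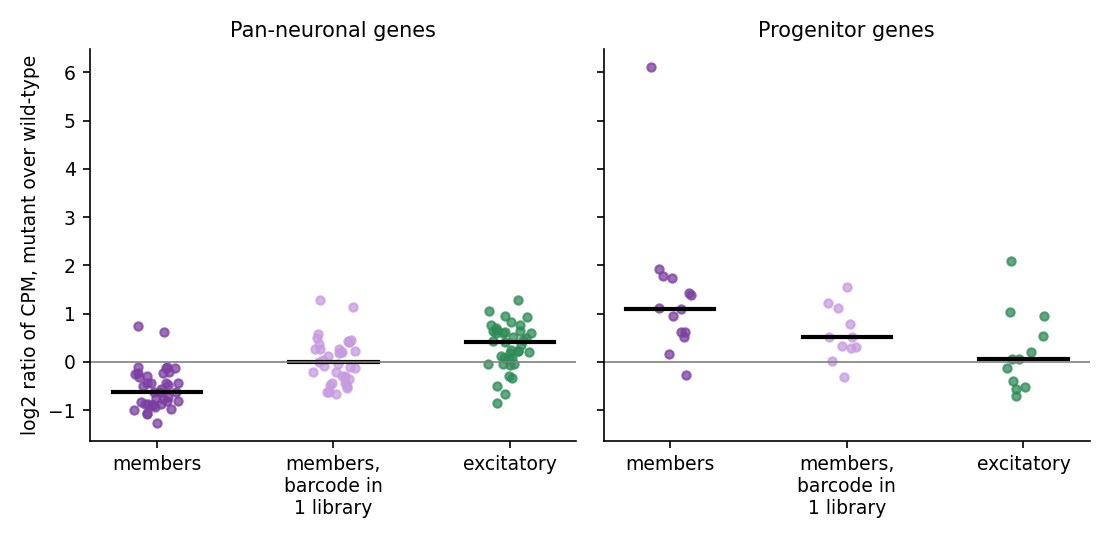
Log2 ratio of mutant over wild-type CPM (vertical axis) for pan-neuronal and progenitor genes with at least 50 CPM, 1 point a gene, in all members, in members whose barcode was in 1 library and in excitatory neurons, with bars at the medians. The pan-neuronal median moves from -0.61 to 0.01 without the shared barcodes, and the progenitor median from 1.11 to 0.53.

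Class genes gave a mixed order between the mutant and wild-type libraries. The V1 gene en1b was 1.46 times higher (1.28 to 1.66) and prdm12b 3.86 times higher (2.75 to 5.47), whereas slc6a1b was 0.521 times (0.418 to 0.645) and glra4a 0.124 times (0.0440 to 0.282) the wild-type level. For prdm12b, 1 cell held 36 of the 50 wild-type UMIs and 1 cell held 54 of the 123 mutant UMIs. Of 8 dorsal inhibitory factors at 50 CPM none was past 2-fold higher and 1 was past 2-fold lower.

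Between the heterozygote and wild-type libraries, which share the wild-type values above, 109 of 2673 genes were higher (4.08%) and 64 lower (2.39%), 6.47% together. The largest ratio was that of the tachykinin gene tac1 (205 CPM against 0, at least 90.5-fold higher), from 3 cells. The forebrain genes dlx5a (67.4 against 0.755 CPM) and dlx2a (63.5 CPM against 0) likewise came from 3 heterozygote cells each, and galn (218 against 6.04 CPM) from 1. The V2b genes gata3 and tal1 stood at 3.85 against 52.8 CPM and 11.5 against 89.8 CPM, from 1 to 4 cells a library. The gene en1b was 1.57 times (1.39 to 1.77) and ccng1 3.52 times (3.02 to 4.1) the wild-type level, and tubb5, a neuronal tubulin gene, was 1.00 times (0.951 to 1.05). Of 14 progenitor genes 4 were higher and 10 lower in the heterozygote members. Their median log2 ratio was -0.20, against 0.05 over all genes.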

How the data were processed

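The authors aligned the reads with Cell Ranger (4.0.0 in the file headers) to Ensembl GRCz11 release 98 with DsRed and EGFP added, and deposited UMI counts per gene and cell, not normalized, for 25109 gene rows and 29762 barcodes. Here cells were filtered as in the study's methods, and UMIs were summed over library and population with Python 3.11.15, numpy 2.4.6, scipy 1.17.1 and pandas 2.3.3. Levels are counts per 1e6 UMIs (CPM). The median filtered cell held 19450, 16570 and 17494 UMIs, and the UMIs behind a value set its precision. Populations were compared with edgeR 4.0.16 (R 4.3.3, TMM factors, filterByExpr, library as block), with DESeq2 1.42.0 as an alternative, after tests on simulated data. Libraries were compared by ratios alone. Symbols with several rows were summed. No doublet caller was run and no doublet was removed. Of the members, 8 had over 40000 UMIs, and 7 held an slc17a6a or slc17a6b UMI, the latter being left out in an alternative. The members, gene lists and tests were chosen with earlier results of these data known. Named genes are those of the lists, the 12 highest and 12 lowest called differences of each test that reach 20 CPM and go one way in all 3 libraries, and the 8 highest and 8 lowest ratios. A few genes that these rules name are left out. The groups of members by class gene were formed after their values were seen. Alternatives changed the scaling, the filter on low counts, the block, the depth, the rule's limits and the libraries or barcodes used.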

Additional observations from a re-analysis of the deposited data

How the results depend on the processing

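Against excitatory neurons (131 genes called) it was 818 with no filter on low counts, 85 with no block for the library, 414 after thinning each cell to 8000 UMIs, 242 with elavl3 at 20 UMIs or more and 342 without shared barcodes, and 73 to 238 when a library was left out. For the members against the other cells with a transmitter UMI (2377) it was 118 after thinning, 1421 with DESeq2 and 3 to 2401 with a library left out. For slc6a5 (137) it was 486 with no filter, 26 with no block, 89 after thinning, 244 with elavl3 at 20 UMIs or more, 49 without shared barcodes, 75 with DESeq2 and 76 to 332 with a library left out. For the mutant ratio 881 genes passed 2-fold at 20 CPM in place of 50, and the median of the progenitor genes was 0.42 after thinning. For the heterozygote ratio 294 passed after thinning, 462 at 20 CPM and 332 without shared barcodes. The sign turned for the mutant log2 ratios of en2b (-0.057 after thinning), npb (2.88) and the pan-neuronal median (0.0067, all without shared barcodes), and for the heterozygote ratios of gata3 (1.83) and tal1 (2.24) with 2 UMIs required of each kind, galn (-0.89, a bound) without anterior members and neflb (0.46) without shared barcodes, genes with few UMIs left, while nefmb gave no direction without shared barcodes. The cause was not tested. No paired analysis was possible because each genotype had 1 library, which holds for the ratios between genotypes alone, the tests between populations being paired by library through the block. The shared-barcode, anterior-gene and elavl3 alternatives were added after seeing the data. Depth limits rare genes: a single UMI can be within the background of other tissues.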
